A study of Homo sapiens with 6 samples.

Results

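The genes described are the pacemaker channel genes HCN2, HCN3 and HCN4, the sinoatrial transcription factor genes SHOX2, ISL1 and TBX3, and BMP10, a secreted ligand of the heart muscle. They were chosen by symbol, and all 7 were among the 38557 genes listed in each count file. The RNA came from cardiomyocytes made from WTC11 (an established line of human induced pluripotent stem cells, labelled wild type) after culture in RPMI plus B27 (a serum-free supplement) or in DMEM plus fatty acids. There were 3 biological replicates per medium, with the numbers 1 to 3 used in either medium, and the comparison asks which transcripts differ with the medium. What else the media contained and how long the cells were kept in them are not stated in the labels, and all 6 libraries come from 1 cell line.

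HCN channels open when the membrane hyperpolarizes and carry an inward cation current, the funny current, which helps cells of the sinoatrial node depolarize spontaneously. Cyclic AMP binds to the channels and shifts their opening to less negative voltages. HCN4 is the main isoform of the human node. TBX3, SHOX2 and ISL1 are transcription factors of the developing node: TBX3 represses genes of the working myocardium, SHOX2 restrains NKX2-5, and ISL1 also marks second heart field progenitors. BMP10 is made by embryonic trabecular and adult atrial myocardium and signals through the type I receptor ACVRL1 and through BMPR1A. Cardiomyocytes made from stem cells usually beat on their own, and their RNA can hold both nodal and chamber genes.

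Of the 7 genes, 6 could be read, with at least 10 counts in all 6 libraries, and SHOX2 was too low to read. HCN4 had the highest level per kilobase of exon, with 258.4 to 537.6 CPM (counts scaled to library size, here with TMM, a scaling that makes libraries of different composition comparable), while BMP10 had 0.415 to 3.96 CPM. HCN2 was about 1.95-fold higher and BMP10 about 5.19-fold lower in DMEM plus fatty acids. The 3 libraries of each medium did not overlap for HCN2, HCN3 and BMP10, against 25.6% of all tested genes without overlap. None of the 6 passed at an adjusted p of 0.05 over all 16107 genes tested (edgeR quasi-likelihood test, Benjamini-Hochberg), where 1.36% of all tested genes passed. With the replicate number as a block, HCN2 passed (adjusted p 0.0282, edgeR), where 4.78% of all tested genes passed. At an unadjusted p under 0.05 there were 2 of the 6, HCN2 and BMP10, against 17.7% of all genes.

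The sequences of HCN2, HCN3 and BMP10 are shown because these are the genes whose libraries separated by medium. The 250 bases before the gene start of RefSeq (GRCh38.p14) were taken, and RefSeq held 6 of the 7 genes. For HCN4 and SHOX2 these windows lie wholly within the gene as GENCODE release 29 places it. For ISL1, 193 of the 250 bases lie before the GENCODE start. Capitals mark the GC-box letters CCCGCCC or the GATA letters AGATAA on either strand. The HCN2 stretch is chr19:589631-589880 on the plus strand and the HCN3 stretch chr1:155277213-155277462 on the plus strand. The BMP10 stretch is chr2:68871518-68871647 on the minus strand, which is the part of its window that lies before the gene start in GENCODE release 29 as well.
HCN2: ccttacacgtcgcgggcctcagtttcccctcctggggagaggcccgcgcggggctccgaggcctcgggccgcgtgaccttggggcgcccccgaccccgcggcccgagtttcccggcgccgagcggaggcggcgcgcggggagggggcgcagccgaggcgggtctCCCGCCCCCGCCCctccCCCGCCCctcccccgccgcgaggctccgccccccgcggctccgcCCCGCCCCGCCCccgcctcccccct
HCN3: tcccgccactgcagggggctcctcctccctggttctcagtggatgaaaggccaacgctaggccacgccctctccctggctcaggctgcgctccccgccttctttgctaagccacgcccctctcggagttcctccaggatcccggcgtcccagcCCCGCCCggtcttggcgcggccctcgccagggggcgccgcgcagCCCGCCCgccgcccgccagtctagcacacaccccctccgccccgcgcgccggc
BMP10: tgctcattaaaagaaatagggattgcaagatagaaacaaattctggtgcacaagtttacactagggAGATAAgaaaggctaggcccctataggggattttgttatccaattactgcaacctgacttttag

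The HCN2 window held 39 CpG dinucleotides, more than 97.3% of the 35116 windows in the RefSeq table, and HCN3 held 26, more than 80.4%. ISL1 held 27 and HCN4 14, near the median of 11 for HCN4. BMP10 held 1, and 6.06% of windows held fewer. The GC box occurred 5 times in HCN2, with 2 pairs of matches that overlap each other, 2 times each in HCN3 and HCN4 and once in SHOX2, and 31.5% of all windows held it. The letters AGATAA occurred 2 times in the 250 bases of BMP10 (1 of them is in the stretch shown), against 0.803% of windows with at least 2 matches and 9.17% with at least 1, and once in ISL1. The other motifs searched on both strands were the T-box letters AGGTGT (9.57% of windows), the NKX2-5 letters CAAGTG (9.50%), the E-box CAGCTG (14.0%), the CCAAT box (32.0%) and the TATA letters TATAAA (10.7%). Of these, the E-box occurred once in ISL1 and the CCAAT box 2 times in ISL1 and once in BMP10. These are matches of letters in a window and not sites of binding.

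HCN2 and HCN3 also share coding sequence, which bears on how their reads were counted. Their longest identical stretch is 59 bases long, in capitals for the 15 bases of exon 4 and in lower case for the 44 bases of exon 5 (GENCODE 29, GRCh38). It lies at chr19:608168-608182 and chr19:610259-610302 in HCN2 and at chr1:155284743-155284757 and chr1:155285165-155285208 in HCN3.
HCN2 and HCN3: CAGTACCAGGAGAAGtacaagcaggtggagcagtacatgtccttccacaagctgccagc

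Windows of 50 bases were compared between the transcripts of each gene and those of all other genes on both strands. For HCN4, ISL1, TBX3 and BMP10, 100% of windows were unique. For HCN2, 85.6% were unique, and the other windows occurred in 3 loci annotated under clone names or, for 10 windows, in HCN3. For HCN3, 88.1% were unique, and apart from the 10 windows it shares with HCN2 the rest lay in PKLR, whose exons on the opposite strand overlap those of HCN3 over 556 bases. SHOX2 exons overlap RSRC1 on the opposite strand over 156 bases. Reads without a unique alignment have a row of their own in the deposited counts, outside the genes, and made up 3.76% to 4.10% of the counted rows in RPMI plus B27 and 3.05% to 3.36% in DMEM plus fatty acids. Such reads are therefore outside the HCN2 and HCN3 values. Reads that fit more than 1 gene also have a row of their own, with 4.11% to 4.15% in RPMI plus B27 and 3.90% to 3.96% in DMEM plus fatty acids. How many reads of HCN2 and HCN3 fell in either row was not tested.

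**Figure D1:**
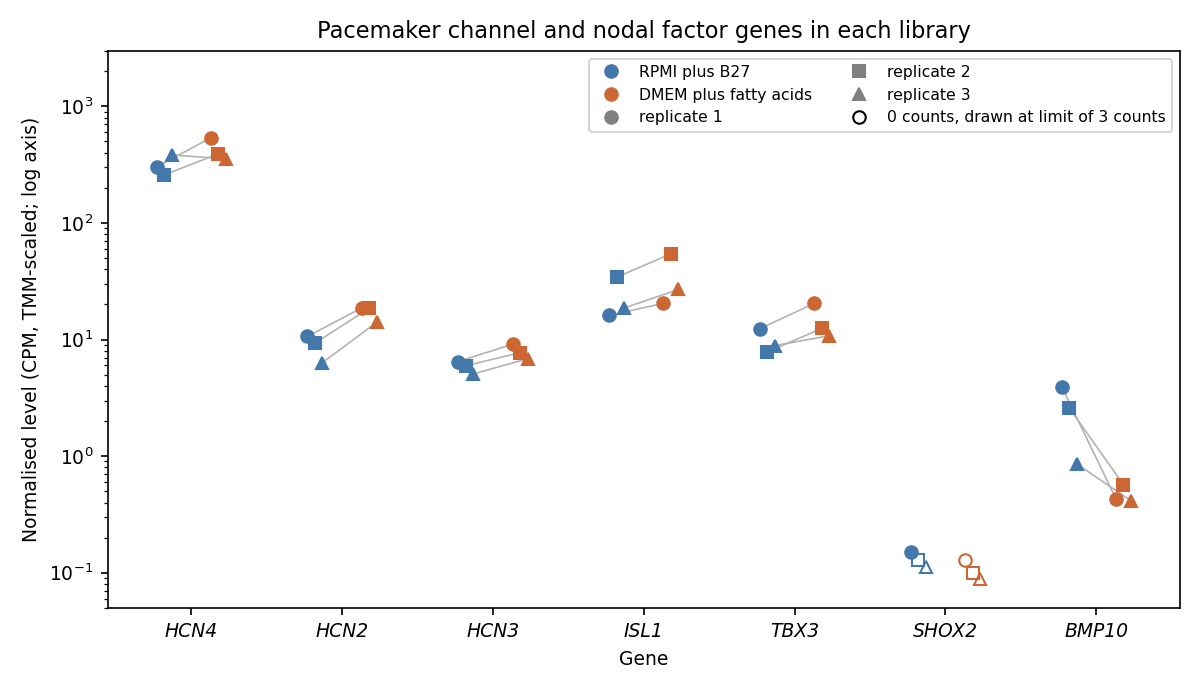
Level of each gene in each library on a log axis (CPM, TMM-scaled), with blue for RPMI plus B27, orange for DMEM plus fatty acids, a symbol for each replicate number and grey lines joining libraries of the same number. Open symbols are libraries with 0 counts, drawn at the limit that 3 counts would give. HCN4 lies above 250 CPM in every library, all 3 HCN2 and HCN3 points of DMEM plus fatty acids lie above those of RPMI plus B27, and all 3 BMP10 points lie below.

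HCN4 (gene ENSG00000138622, chr15:73319859-73369264, minus strand, GENCODE 29) had 302.6, 258.4 and 383.7 CPM in RPMI plus B27 replicates 1 to 3 and 537.6, 391.0 and 354.2 CPM in DMEM plus fatty acids replicates 1 to 3. The media overlapped, since replicate 3 was the highest of RPMI plus B27 and the lowest of DMEM plus fatty acids. It ranked 340 by mean CPM among the 16107 tested genes. Its log2 fold change was 0.44 ± 0.21 (SE), or 1.36-fold, with an adjusted p of 0.331 by edgeR's quasi-likelihood test. Within replicate numbers the log2 difference was 0.83, 0.60 and -0.12. Without DMEM plus fatty acids replicate 1, the library with the highest HCN4, the log2 fold change was 0.24.

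HCN2 (ENSG00000099822, chr19:589893-617159, plus strand), an isoform strongly gated by cyclic AMP, had 10.6, 9.32 and 6.34 CPM in RPMI plus B27 and 18.7, 18.5 and 14.1 CPM in DMEM plus fatty acids. Every library of DMEM plus fatty acids was above every library of RPMI plus B27. The mean went from 8.76 ± 2.20 to 17.1 ± 2.61 CPM (SD, n = 3 each). The log2 fold change was 0.96 ± 0.24, with an unadjusted p of 0.00427 and an adjusted p of 0.104 by edgeR. Blocking on the replicate number gave 0.98 ± 0.15 and a call, with an adjusted p of 0.0282, and the difference was 0.81, 0.99 and 1.14 within replicate numbers 1, 2 and 3. It was the only one of the 6 genes called with the block, where 4.78% of all tested genes were called. HCN2 also passed in the DESeq2 Wald test (adjusted p 0.00792), which called 7.53% of all genes tested.

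HCN3 (ENSG00000143630, chr1:155277583-155289848, plus strand), an isoform with little response to cyclic AMP, had 6.48, 5.96 and 5.07 CPM in RPMI plus B27 and 9.13, 7.72 and 6.85 CPM in DMEM plus fatty acids. These libraries did not overlap either, although the gap between the media was narrow. The log2 fold change was 0.44 ± 0.21 with an adjusted p of 0.336, and 0.43 ± 0.18 with 0.212 in the blocked fit (edgeR). The differences within replicate numbers were 0.49, 0.37 and 0.43, all upward.

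**Figure D2:**
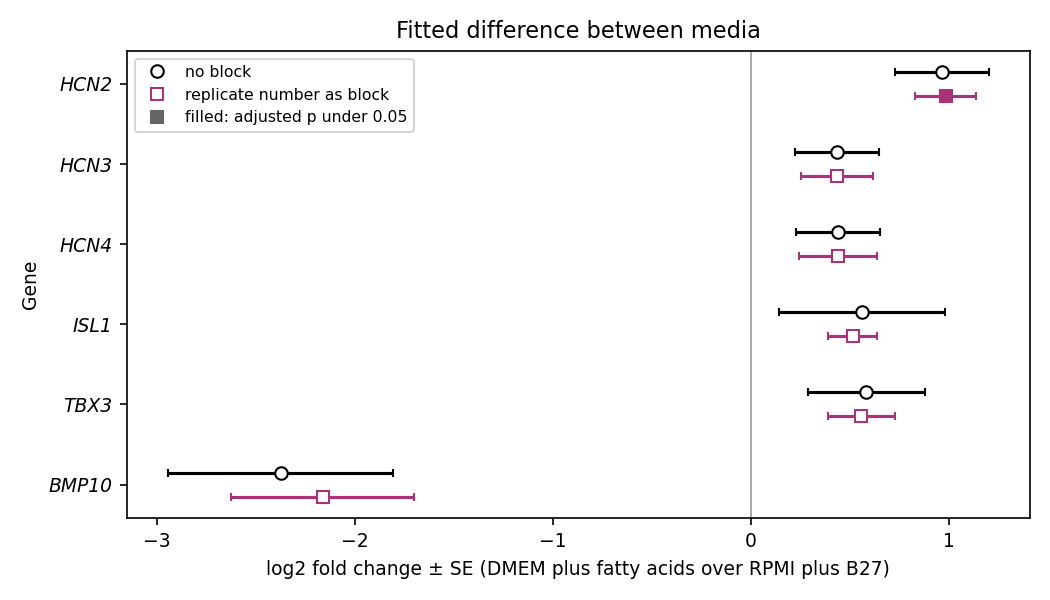
Fitted log2 fold change ± SE between DMEM plus fatty acids and RPMI plus B27 for HCN2, HCN3, HCN4, ISL1, TBX3 and BMP10, without (black circles) and with (purple squares) a block for replicate number. A filled symbol marks an adjusted p under 0.05, which holds for HCN2 with the block alone.

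Levels of different genes were compared per kilobase of merged exons (CPM per kb, GENCODE 29 lengths), since longer transcripts give more reads. HCN4 had 43.6 ± 8.79 CPM per kb in RPMI plus B27, against 59.2 ± 13.4 in DMEM plus fatty acids (mean ± SD, n = 3 each). HCN2 had 2.57 ± 0.645 in RPMI plus B27, against 5.02 ± 0.767 in DMEM plus fatty acids, and HCN3 had 1.42 ± 0.173 against 1.92 ± 0.279. The library ranges of the 3 genes did not overlap within either medium. Of the summed CPM per kb of these 3 genes, HCN4 made up 89.5% to 94.5% in RPMI plus B27 libraries, against 88.1% to 90.6% in those of DMEM plus fatty acids, so the ranges overlapped. By raw counts, which are not corrected for length, the HCN4 share in RPMI plus B27 ran from 94.4% (95% Wilson interval 93.83% to 94.95%) in replicate 2 to 97.1% (96.8% to 97.4%) in replicate 3, with intervals that cover counting error only.

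The ratio of HCN2 to HCN3 in CPM per kb separated the media. It was 1.98, 1.89 and 1.51 in RPMI plus B27 and 2.48, 2.90 and 2.49 in DMEM plus fatty acids. The ratio of HCN4 to HCN2 was 13.4, 13.1 and 28.5 in RPMI plus B27 and 13.6, 9.95 and 11.9 in DMEM plus fatty acids, where the media overlapped and RPMI plus B27 replicate 3 stood apart. The ratio of HCN4 to HCN3 was 26.6, 24.7 and 43.1 in RPMI plus B27. In DMEM plus fatty acids it was 33.6, 28.9 and 29.5, and the media overlapped. These ratios are given as descriptions, without a test, and how often a ratio of 2 genes separates the media was not tested.

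**Figure D3:**
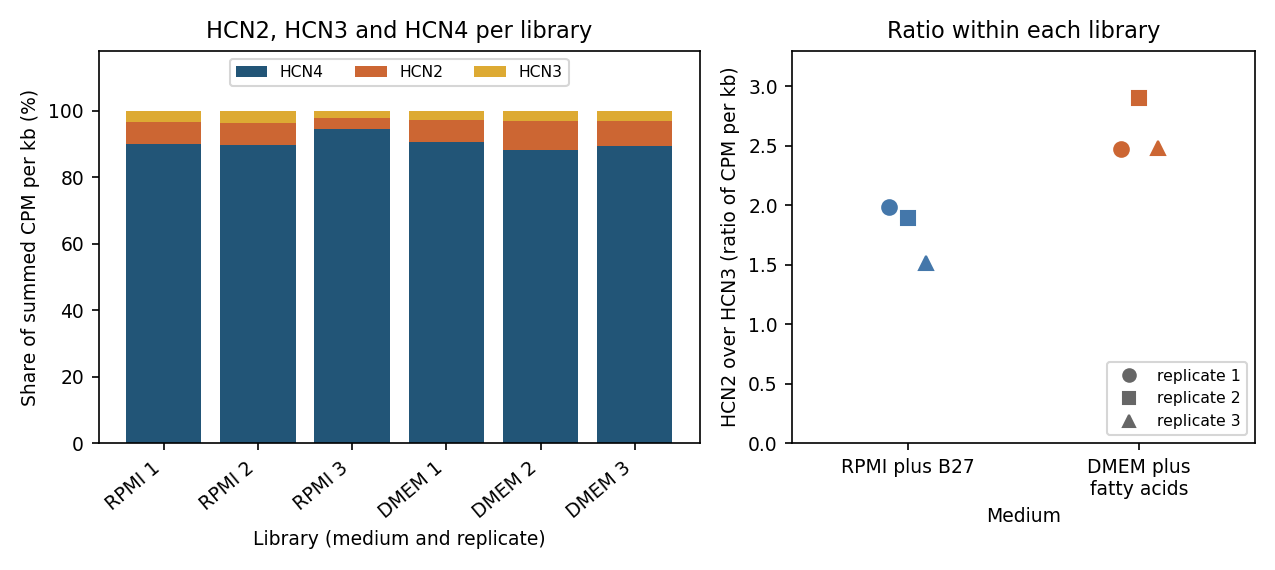
Left, share of HCN2, HCN3 and HCN4 in their summed CPM per kb in each library (stacked bars, percent). Right, ratio of HCN2 to HCN3 in CPM per kb by medium, 1 symbol per replicate. HCN4 holds at least 88.1% in every library, and the ratio is 1.51 to 1.98 in RPMI plus B27 and 2.48 to 2.90 in DMEM plus fatty acids.

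Among the transcription factors, ISL1 had the highest level per kilobase of exon in both media. ISL1 (ENSG00000016082, chr5:51383391-51394738, plus strand) had 16.1, 34.3 and 18.6 CPM in RPMI plus B27 and 20.5, 54.3 and 26.9 CPM in DMEM plus fatty acids. Replicate 2 was the highest in both media, and the media overlapped. The spread among replicates of 1 medium, 2.13-fold in RPMI plus B27 and 2.66-fold in DMEM plus fatty acids from lowest to highest, was larger than the 1.47-fold difference between media. The log2 fold change was 0.56 ± 0.42 with an adjusted p of 0.532 by edgeR. Within replicate numbers the differences were 0.34, 0.66 and 0.53, and with the block the adjusted p was 0.0747. Without DMEM plus fatty acids replicate 2 the log2 fold change was 0.04.

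TBX3 (ENSG00000135111, chr12:114670254-114684164, minus strand) had 12.4, 7.83 and 8.87 CPM in RPMI plus B27 and 20.4, 12.5 and 10.8 CPM in DMEM plus fatty acids. Replicate 1 was the highest in both media, and DMEM plus fatty acids replicate 3 lay below RPMI plus B27 replicate 1. In the fit, its log2 fold change was 0.58 ± 0.30 with an adjusted p of 0.356, and 0.56 ± 0.17 with 0.117 in the blocked fit (edgeR). It was 0.26 without DMEM plus fatty acids replicate 1. Per kilobase of merged exons, ISL1 had 7.98 ± 3.42 and TBX3 1.63 ± 0.402 CPM per kb in RPMI plus B27, and 11.8 ± 6.24 and 2.45 ± 0.863 in DMEM plus fatty acids (mean ± SD, n = 3 each). In that order ISL1 lay between HCN4 and HCN2 without overlap of libraries with either in the same medium, while TBX3 overlapped HCN3 in both media and HCN2 in RPMI plus B27. Per kilobase of the longest coding transcript, TBX3 overlapped HCN2 in DMEM plus fatty acids too (2.28 to 4.32 against 4.13 to 5.48 CPM per kb).

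SHOX2 (ENSG00000168779, chr3:158095954-158106503, minus strand) had 4 counts in RPMI plus B27 replicate 1, or 0.151 CPM (95% Poisson interval 0.0411 to 0.386 CPM), and 0 in the other 5 libraries. A count of 0 allows a level of up to 3 counts, which is 0.0889 to 0.129 CPM depending on the library. SHOX2 was therefore not detectable at this depth in those 5 libraries, and no fold change is given.

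BMP10 (ENSG00000163217, chr2:68865481-68871517, minus strand) went the other way from the channels. It had 105, 61 and 23 counts in RPMI plus B27, or 3.96, 2.60 and 0.858 CPM, and 10, 17 and 14 counts in DMEM plus fatty acids, or 0.431, 0.568 and 0.415 CPM. Every library of DMEM plus fatty acids was below every library of RPMI plus B27, with the 14.6 to 34.5 counts of the 95% Poisson interval of RPMI plus B27 replicate 3 overlapping the 9.90 to 27.2 of DMEM plus fatty acids replicate 2. Per kilobase of merged exons BMP10 had 1.56 ± 0.980 CPM per kb in RPMI plus B27, where it overlapped HCN2, TBX3 and HCN3, and 0.298 ± 0.0533 in DMEM plus fatty acids, below every other gene that could be read. RPMI plus B27 itself spanned 4.61-fold, against 1.37-fold in DMEM plus fatty acids. The log2 fold change was -2.38 ± 0.57 with an unadjusted p of 0.00369 and an adjusted p of 0.0961 by edgeR, and -2.16 ± 0.46 with 0.0572 with the block. It passed in the DESeq2 Wald test (adjusted p 0.00394) and in edgeR without RPMI plus B27 replicate 3 (0.0418). The adjusted p ran from 0.00394 to 0.245 over the 12 alternatives.

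By direction within replicate numbers, HCN2, HCN3, ISL1 and TBX3 were higher in DMEM plus fatty acids in 3 of 3 pairs and BMP10 lower in 3 of 3, while HCN4 was higher in 2 of 3. That is 5 of 6 genes with 1 direction in every pair, against 49.8% of all tested genes. Media did not overlap for 3 of the 6, against 25.6% of all tested genes.

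The labelled cell type was checked on 10 cardiomyocyte markers, including TNNT2, ACTN2 and MYH6. All 10 were expressed, with a summed level of 30995 to 37228 CPM in RPMI plus B27 and 24892 to 34924 CPM in DMEM plus fatty acids. The sum covers opposite shifts, since 5 of the 10 had a positive log2 fold change and 5 a negative one. MYH6 had 3504 to 5653 CPM in RPMI plus B27 against 6760 to 10620 CPM. MYH7 had 7544 to 13359 CPM against 2493 to 6082 CPM, and ACTN2 1840 to 2750 CPM against 677 to 1385 CPM. Of the 10, 4 did not overlap between media and 3 had an unadjusted p under 0.05 (edgeR). The main test called 0, and the blocked fit called 2, both lower. Over all tested genes, 25.6% did not overlap and 17.7% had such an unadjusted p. The main test called 1.36% of all tested genes and the blocked fit 4.78%. Among markers of other cells, called genes were found in the fibroblast and smooth muscle lists. All 8 fibroblast and stromal markers were lower in DMEM plus fatty acids without overlap between media, with a summed level of 4223 to 7956 CPM in RPMI plus B27 against 716 to 1911 CPM, and 4 of the 8 were called. The 5 smooth muscle markers summed to 1555 to 1949 CPM against 311 to 1125 CPM, with 1 called. The 7 epicardial markers summed to 4.25 to 7.42 CPM against 1.64 to 4.33 CPM, with 0 of the 4 tested called (1 at an unadjusted p under 0.05). Of 6 endothelial markers PECAM1, CDH5 and VWF had at most 11 counts in any library, and 3 were tested, with 0 called and 1 at an unadjusted p under 0.05. TEK had 0.485 to 1.13 CPM against 0.100 to 0.258 CPM and TIE1 0.410 to 1.06 CPM against 0.178 to 0.517 CPM, both lower in DMEM plus fatty acids in 3 of 3 pairs. KDR, which early cardiac progenitors also express, had 27.5 to 238.9 CPM against 114.5 to 463.2 CPM and was higher in 3 of 3 pairs. It was called in the blocked fit. The neuronal markers, relevant to ISL1, summed to 18.5 to 29.8 CPM against 9.04 to 19.0 CPM, which overlapped, with 0 of the 2 tested called and 0 at an unadjusted p under 0.05 (edgeR). The 6 endoderm and hepatic markers summed to 15.9 to 108.5 CPM against 7.62 to 30.7 CPM. Of the 3 tested, 0 were called, and 1 was called lower with the block. AFP was highest in RPMI plus B27 replicate 3, at 62.8 CPM. The 5 pluripotent markers summed to 1.06 to 2.22 CPM against 0.474 to 1.16 CPM, with 0 of the 2 tested called. In bulk RNA, fewer cells of a type and less RNA per cell cannot be told apart, and the part of other cell types in the values of BMP10, ISL1 and TBX3 was not tested.

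Other genes of pacemaking were described by 6 lists. Over all 16107 tested genes, 1.36% were called, 4.78% were called in the blocked fit and 17.7% had an unadjusted p under 0.05 (edgeR). Of 14 genes of pacemaking currents and the calcium clock, all were tested, 0 were called and 1 had an unadjusted p under 0.05, with a median log2 fold change of -0.04 against 0.01 for all tested genes. That gene was GJC1, the low-conductance connexin of the node, with 82.9, 63.3 and 71.0 CPM in RPMI plus B27 and 51.6, 48.6 and 45.6 CPM in DMEM plus fatty acids. Its libraries did not overlap. The log2 fold change was -0.57 ± 0.13 with an adjusted p of 0.0910, and 0.0443 in the blocked fit (edgeR), where it was the single gene of the list called. CACNA1D, the L-type calcium channel of the node, had 0.52 ± 0.29 and CACNA1C, that of the working myocardium, -0.20 ± 0.13, with adjusted p of 0.389 and 0.473.

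Of 16 symbols for HCN partners and the supply of cyclic AMP, 13 were tested and 0 were called, with a median of -0.22. At an unadjusted p under 0.05 (edgeR) there were 2 of the 13, against 17.7% of all tested genes. ADCY6, an adenylyl cyclase of cardiomyocytes, had 353.8, 155.3 and 168.8 CPM in RPMI plus B27 and 131.0, 96.7 and 106.8 CPM in DMEM plus fatty acids. Its log2 fold change of -1.02 ± 0.32 had an adjusted p of 0.169, and 0.0446 with the block (edgeR), and it was -0.54 without RPMI plus B27 replicate 1, the highest library. CAV3, the muscle caveolin that associates with HCN4, was low throughout, with 0.746 to 1.88 CPM in RPMI plus B27 and 0.0593 to 0.401 CPM in DMEM plus fatty acids (-2.35 ± 0.65, adjusted p 0.132). Leaving out 1 library at a time gave CAV3 values from -2.99 (without DMEM plus fatty acids replicate 2) to -1.85 (without DMEM plus fatty acids replicate 3). MRVI1, the older symbol of IRAG1, an HCN4 regulator, had -0.73 ± 0.39, and CHRM2, the muscarinic receptor that lowers cyclic AMP, 0.40 ± 0.24, with adjusted p of 0.382 and 0.428.

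Among 12 nodal factors and node-enriched genes, 11 were tested and 1 was called, downward, with a median of -0.06. Over all tested genes the share called was 1.36%, and 4.78% in the blocked fit. The called gene was SMOC2, a secreted calcium-binding matrix protein, which fell from 7.02 ± 2.80 to 0.660 ± 0.264 CPM (SD, n = 3 each, log2 fold change -3.38 ± 0.43, adjusted p 0.0292 by edgeR). Leaving out any single library except RPMI plus B27 replicate 3 ended the call (adjusted p 0.0543 to 0.103). TBX18, which builds the head of the node and also marks epicardium and stroma, had 7.72, 3.11 and 4.10 CPM in RPMI plus B27 and 1.12, 0.803 and 1.36 CPM in DMEM plus fatty acids. Its log2 fold change was -2.18 ± 0.42 with an adjusted p of 0.0605, and 0.0271 in the blocked fit (edgeR), so that 2 genes of the list were called with the block, both lower. SMOC2 and TBX18 moved with the fibroblast and stromal markers given above, and the part of those cells was not tested. BMP4 had -0.46 ± 0.31 and CPNE5 -0.76 ± 0.62, the latter resting on RPMI plus B27 replicate 1 (66.1 CPM against 12.9 to 22.5 CPM in the other libraries). TBX5 and TBX2 had 0.23 ± 0.37 and 0.16 ± 0.29, and the sign of CPNE5, TBX5 and TBX2 changed when 1 library was left out.

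All 12 working chamber genes were tested, 10 were lower, 0 were called and 3 had an unadjusted p under 0.05, with a median of -0.39. Over all 16107 tested genes, 7888 were lower, 17.7% had such a p and 4.78% were called in the blocked fit. The blocked fit called 2, both lower, NPPA and the atrial potassium channel gene KCNA5, which is named here after its values were seen. KCNA5 had 35.9, 4.76 and 2.50 CPM in RPMI plus B27 and 8.31, 2.01 and 0.889 CPM in DMEM plus fatty acids, so the media overlapped. Its log2 fold change was -1.97 ± 1.14 with an adjusted p of 0.412, and 0.0245 with the block (edgeR). The DESeq2 Wald test did not call it (adjusted p 0.466). NPPA, the atrial natriuretic peptide and a gene repressed by TBX3, had 392.5, 184.9 and 155.0 CPM in RPMI plus B27 and 66.0, 66.3 and 86.0 CPM in DMEM plus fatty acids (-1.75 ± 0.35, adjusted p 0.0646, and 0.0460 with the block, edgeR). KCNJ2, the inward rectifier that holds the resting potential and is low in nodal cells, was higher, with 0.766 to 1.45 CPM against 2.31 to 3.27 CPM (1.28 ± 0.33, adjusted p 0.114). GJA1, the main connexin of the ventricle, had -0.91 ± 0.41 and HEY1 -1.14 ± 0.47, with adjusted p of 0.309 and 0.270. HEY1 had 32.6 CPM in RPMI plus B27 replicate 1 and 6.37 to 12.1 CPM in the other libraries, and its log2 fold change was -0.42 without that library. NKX2-5, the chamber factor restrained by SHOX2, had 324.3 to 456.4 CPM in RPMI plus B27 and 311.2 to 354.0 CPM in DMEM plus fatty acids, with overlap (-0.16 ± 0.16, adjusted p 0.640), and its sign changed without RPMI plus B27 replicate 3.

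Of 10 second heart field partners of ISL1, 8 were tested and 0 were called, with a median of 0.11. At an unadjusted p under 0.05 (edgeR) there was 1 of the 8, against 17.7% of all tested genes. That gene was MEF2C, a target of ISL1, with 92.3 to 96.4 CPM in RPMI plus B27 and 113.6 to 130.0 CPM in DMEM plus fatty acids (0.39 ± 0.10, adjusted p 0.123). LDB1, the cofactor that binds ISL1, had 0.21 ± 0.12 and GATA4 -0.18 ± 0.15, with adjusted p of 0.426 and 0.581 (edgeR).

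Of 14 BMP receptors and immediate targets, 13 were tested and 0 were called, with a median of 0.06. At an unadjusted p under 0.05 (edgeR) there were 5 of the 13, against 17.7% of all tested genes. ENG, a co-receptor for BMP10, was lower in every library of DMEM plus fatty acids, at 3.41 to 5.22 CPM against 7.64 to 25.2 CPM (-1.84 ± 0.44, adjusted p 0.0967), and it is also expressed by endothelial and stromal cells. Without RPMI plus B27 replicate 1, its highest library, the log2 fold change of ENG was -1.24. ACVR2A, a type II receptor, had 13.1 to 16.3 CPM against 20.7 to 23.4 CPM (0.58 ± 0.15, adjusted p 0.110). ACVRL1, the type I receptor named at the start, did not pass the filter on low counts and has no test. The receptors BMPR2 and BMPR1A had -0.25 ± 0.12 and 0.06 ± 0.17, and the sign of BMPR1A changed when 1 library was left out. The target genes did not share a direction, with ID2 at 0.72 ± 0.24 (adjusted p 0.182, and 0.0455 in the blocked fit, edgeR) and the inhibitory SMAD7 at -0.54 ± 0.21 (adjusted p 0.240).

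**Figure D4:**
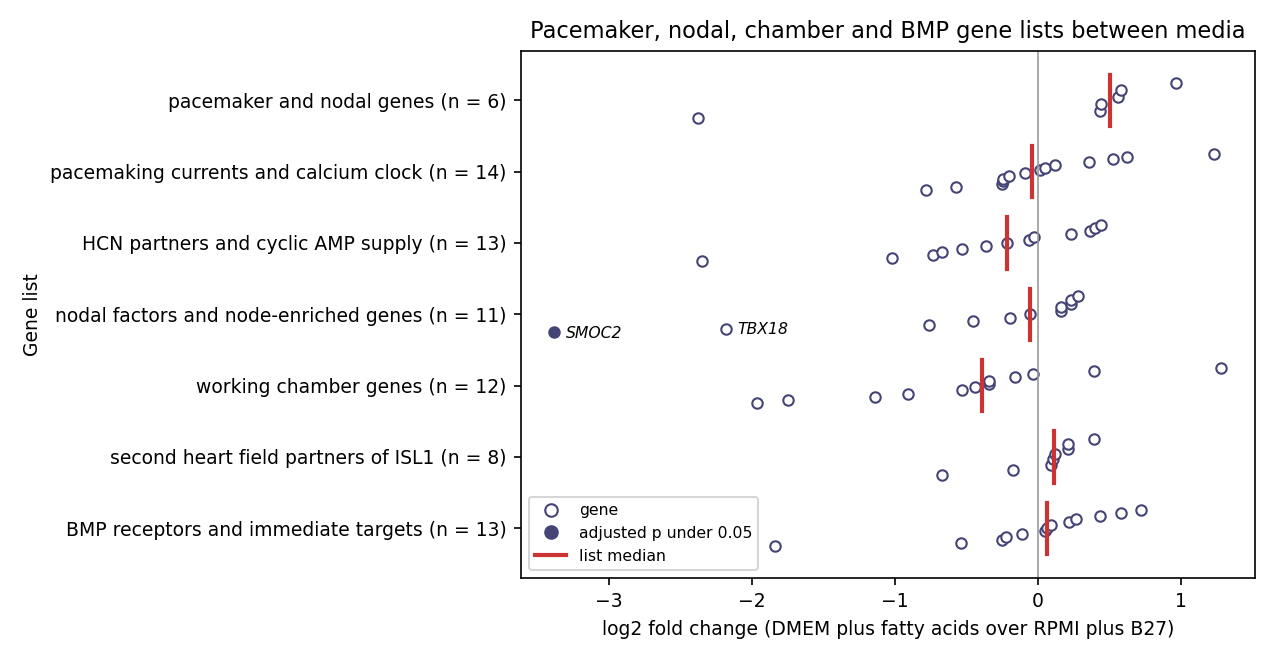
log2 fold change between media of each tested gene (circles) in the 6 lists and of the 6 pacemaker and nodal genes that could be read, with the median of each in red and filled circles for an adjusted p under 0.05. SMOC2 is the single filled circle, and the medians of the 6 lists lie between -0.39 and 0.11.

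The genes most like each of the 6 were those with the highest Pearson's r of log2 CPM over the 6 libraries, among the 10027 or 10028 other genes that averaged 10 CPM or more. For HCN2 these were RENBP, NDRG2 and PPP1R12B (r 0.998, 0.997 and 0.993), and for HCN3 NAPB, NDRG4 and LDHD (0.997, 0.994 and 0.991). For HCN4 they were ZNF628, GTPBP6 and CERS2 (0.984, 0.984 and 0.982). ISL1 was nearest to TTC39A, C21orf91 and ACOT8 (0.995, 0.987 and 0.986), TBX3 to RUFY1, AARS1 and FANCF (0.997, 0.989 and 0.988), and BMP10 to METTL5 and ZFAS1 (0.997 and 0.990). With 6 libraries that share medium and replicate number, and so many genes compared, values this high are a description of likeness and no more. Between the 6 genes themselves, r was highest for HCN2 with HCN3 (0.96) and for HCN3 with TBX3 (0.88). It was lowest for HCN4 with BMP10 (-0.78), and ISL1 with HCN4 had -0.12.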

How the data were processed

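The 6 deposited files held raw counts per gene symbol, 1 library each, made with the Illumina Stranded mRNA Prep kit, per the labels. STAR, HTSeq and the build hg38 are named in the submitters' processing notes, and their versions, the annotation and the strand setting are not given in the sources used here. Genes are named by the deposited symbol, and positions, lengths and overlaps come from GENCODE 29 on the same build. The 5 summary rows of each file (12.8% to 15.6% of counted rows) entered neither library sizes nor tests. Libraries held 23232324 to 31035389 gene counts.

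Counts were tested with edgeR 4.0.16 (R 4.3.3) after filterByExpr (default settings, with a minimum count of 10 and a minimum total of 15), with TMM scaling, a quasi-likelihood test over all 6 libraries without covariates, and Benjamini-Hochberg adjustment over 16107 genes at 0.05. Alternatives were other scalings and filters, DESeq2 1.42.0, the replicate number as a block and leaving out each library. Deviations of same-numbered libraries from their medium's mean correlated at 0.31, 0.43 and 0.37 and those of other pairs at -0.24 to -0.14. Deviations cancel within a medium, so the negative values follow from the positive ones and are not separate evidence. From the positive values the numbers were taken as pairs, although no label says what a number stands for. The main test did not use the pairs, and the blocked fit did. Nothing says more of the replicates than that they are biological, so p-values measure the spread between these cultures. Every pair of libraries differed beyond sampling noise (smallest chi-square per degree of freedom 29.4). CPM are scaled by TMM. A standard error is the fold change divided by the square root of F. A gene was too low to read when fewer than 3 libraries had at least 10 counts, and the limit for a count of 0 was 3 counts. The labels name no molecular identifiers, so intervals and limits cover counting error only.

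The 7 genes and the lists were chosen with earlier results of these data known. From each list the text names at most 4 tested genes with the smallest p, every called gene, and direct partners of the 7 genes (NKX2-5, TBX5, TBX2, BMPR1A and BMPR2). Likeness names up to 3 genes per member, by Pearson's r on log2 CPM with a prior count of 2. Some genes that these rules would name are not reported here.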

Additional observations from a re-analysis of the deposited data

How the results depend on the processing

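The number of genes called, 219 by the main test, was 217 with DESeq2 size factors, 202 with scaling by total counts, 539 without a filter on low counts, 119 when all 6 libraries had to reach 10 counts, 1212 by the DESeq2 Wald test, 770 with the replicate number as a block, and 3 (without DMEM plus fatty acids replicate 3) to 131 (without RPMI plus B27 replicate 3) when 1 library was left out. The cause of these shifts was not tested. Of the 7 genes 0 were called by the main test, 1 with the replicate number as a block (HCN2), 1 without a filter (BMP10, adjusted p 0.0433), 2 by DESeq2 (HCN2 and BMP10), and 0 to 1 when 1 library was left out (BMP10, without RPMI plus B27 replicate 3). All 72 alternative values of the 6 tested genes kept their direction. HCN2 was called in 2 of its 12 alternatives (log2 fold change 0.78 to 1.13, adjusted p 0.00792 to 0.275) and BMP10 in 3 of 12 (-2.78 to -1.85). HCN3, HCN4, ISL1 and TBX3 were called in 0 of 12 each (smallest adjusted p 0.206, 0.182, 0.0747 and 0.117). Scaling by total counts moved the median over all genes from 0.01 to 0.12 (log2) and the split of called genes from 47 higher and 172 lower to 74 higher and 128 lower. Among 27 other named genes 7 of 323 alternative values changed sign, all on leaving out 1 library: CPNE5 (range -1.12 to 0.43), TBX5 (-0.0493 to 0.51), TBX2 (-0.0384 to 0.41), NKX2-5 (-0.26 to 0.00392) and BMPR1A (-0.0663 to 0.19). With the block ADCY6, GJC1, ID2, NPPA and TBX18 were called as given above. Apart from HCN2 and KCNA5 it changed no other call of a gene named from the 6 lists. Among the cell type markers the block also called KDR, the 1 tested endothelial marker that was higher, and 2 cardiomyocyte markers, both lower. Among genes that the main test did not call, DESeq2 also called GJC1, CAV3, ADCY6, TBX18, NPPA, KCNJ2, MEF2C, ENG and ACVR2A, and the fit without a filter called TBX18, NPPA and ENG. BMP10 in DMEM plus fatty acids, at 10 to 17 counts, is limited by depth.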
